A study of Mus musculus with 26 samples.

Results

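Mouse chromosome 15 was examined as a region of the genome in female mouse embryonic fibroblasts (MEFs) with altered ATRX. Its members were all CUT&RUN peaks whose listed chromosome was 15, which came to 14224 of 271641 peaks over 16 peak lists, and all 1851 of 55450 annotated genes placed there by GENCODE M21, of which 785 were protein-coding. The chromosome was chosen because its share of peaks and its median expression ratio to WT were already seen to stand apart, so those quantities are given as descriptions and carry no test. It was divided into 21 bins of 5 Mb, numbered from the centromere end, and each gene was placed by its transcription start site (TSS).

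CUT&RUN releases the DNA around an antibody-bound protein with a tethered nuclease, and here it was aimed at ATRX, at EZH2 and at H3K27me3. The WT cells were the parental female MEFs with unmodified Atrx. The ATRXΔRBR cells were derived from them as a CRISPR clone that carries an in-frame deletion of the RNA-binding region (RBR) in the endogenous Atrx gene, so whatever else distinguishes 1 clone from its parent cannot be told apart from the deletion. The ATRX KD cells expressed an shRNA against Atrx. WT and ATRXΔRBR had 2 peak lists for each of the 3 targets, ATRX KD had 2 for EZH2 and 2 for H3K27me3, and each genotype had 2 poly(A) RNA-Seq libraries. With 2 samples against 2, an exact two-sided permutation test cannot go below p = 0.33, and both comparisons shared the same WT samples.

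The RNA-Seq libraries differed in depth, with 13320647 and 11856674 estimated counts for WT, 9574196 and 13694792 for ATRXΔRBR, and 9051712 and 21723597 for the libraries labelled ATRX KD. Atrx itself was at 633 and 434 CPM (counts scaled to a common library size) in WT, 371 and 312 in ATRXΔRBR, while ATRX KD had 411 and 550. By CPM the knockdown libraries therefore overlapped WT, with a log2 ratio of -0.15 ± 0.21 (standard error, edgeR adjusted p = 0.60). By the deposited TPM (scaled for transcript length as well), ATRX KD had 331 and 512, both above WT at 233 and 141. ATRXΔRBR had 175 and 124 TPM. Why the scales differ was not tested. The study describes ATRX protein as acutely depleted in its knockdown cells and shows a western blot. Protein was not examined here, and the libraries are called by their label. Fibroblast genes were abundant in all 6 libraries, with Col1a2 at 6067 and 4277 CPM in WT, 6684 and 6889 in ATRXΔRBR, while ATRX KD had 4704 and 5033, and Vim at 2506 CPM or more in each. Of the 9 fibroblast markers, Thy1 was at 0 in every library. Col3a1 was at 71.6 and 61.2 CPM in WT, at 35.9 and 34.3 for ATRXΔRBR and at 0.436 and 0.555 for ATRX KD, and was called lower in both (log2 ratio -0.91, edgeR adjusted p = 0.023, and -6.99, 2.4e-05). Dcn was at 1.45 and 0.668 CPM in WT and 3.15 and 3.85 in ATRXΔRBR (not called), and had no count in ATRX KD. Fibronectin (Fn1, 0.99) and Pdgfrb (0.51) were called higher in ATRX KD. Of the markers of other cell types, Krt5, Cdh5, Myod1, Myog and Sox10 had no count in any library, while others moved with genotype. The 3 endothelial markers summed to 1.68 and 1.92 CPM in WT, to 5.35 and 3.85 for ATRXΔRBR and to 0.436 and 0.139 for ATRX KD. In WT and ATRXΔRBR nearly all of it was Pecam1, which was called higher in ATRXΔRBR (log2 ratio 1.48, edgeR adjusted p = 0.048) and lower in ATRX KD, where it had no count. The 3 muscle markers summed to 0.306 CPM or less in WT and to 1.68 and 2.25 in ATRXΔRBR, all of it Des (2.79, edgeR adjusted p = 0.019), and they summed to 0.545 and 0.231 in ATRX KD. The 4 epithelial markers were at 1.89 CPM or less in sum, and Cdh1 was called lower in ATRX KD (-2.99, edgeR adjusted p = 0.020). The 3 neural markers summed to 42.9 and 61.0 CPM in WT, 57.1 and 43.5 for ATRXΔRBR and 110 and 104 for ATRX KD, mostly Map2, a microtubule-associated protein gene that was called higher in ATRX KD (1.09, edgeR adjusted p = 0.0051). The part of other cell types in the results was not tested. The raw files of the ATRX KD libraries were named in another form than those of the other 4, so handling and genotype cannot be told apart in that comparison, and the part of either in the results was not tested.

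ATRX is a chromatin remodeller of the SWI/SNF family that binds repetitive and heterochromatic DNA as well as RNA, and EZH2 is the catalytic subunit of Polycomb repressive complex 2 (PRC2), which places the H3K27me3 mark on the chromatin of silent developmental genes. PRC2 is found mostly at promoters rich in CG dinucleotides, and H3K27me3 can spread from them over wide domains. Chromosome 15 carries the Hoxc cluster, the type II keratin genes, the Ly6 genes of small surface proteins and the Myc locus.

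The sequences below show the 3 ATRX peaks of the chromosome with the highest minimum significance over the lists and 3 promoters that differed in their Polycomb marks. Of the ATRX peaks, 128 intersections were present in all 4 lists, and the 3 with the highest minimum −log10 q over the lists (3.81, 3.72 and 3.67, with the next at 3.63) are printed on the + strand of GRCm38 with every CG in capitals. A CG dinucleotide reads the same on both strands.
Near Gtpbp1, chr15:79690401-79690613: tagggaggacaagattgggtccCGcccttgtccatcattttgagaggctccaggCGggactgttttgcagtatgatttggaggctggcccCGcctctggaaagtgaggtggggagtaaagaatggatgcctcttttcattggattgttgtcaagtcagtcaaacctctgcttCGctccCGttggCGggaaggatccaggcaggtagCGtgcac
Inside Cdh12, chr15:20643012-20643311: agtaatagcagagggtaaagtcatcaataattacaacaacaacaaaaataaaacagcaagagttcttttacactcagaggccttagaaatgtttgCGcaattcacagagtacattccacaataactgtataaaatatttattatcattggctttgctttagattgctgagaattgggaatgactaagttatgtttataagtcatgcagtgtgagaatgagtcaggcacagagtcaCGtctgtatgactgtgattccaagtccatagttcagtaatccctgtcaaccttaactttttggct
Inside Pvt1, chr15:62287142-62287441: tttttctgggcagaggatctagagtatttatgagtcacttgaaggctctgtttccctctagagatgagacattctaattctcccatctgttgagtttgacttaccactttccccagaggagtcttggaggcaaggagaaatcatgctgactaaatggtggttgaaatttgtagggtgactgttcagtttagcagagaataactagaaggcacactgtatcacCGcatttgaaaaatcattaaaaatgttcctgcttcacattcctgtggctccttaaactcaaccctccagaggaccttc

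The first lay 338 bp from the TSS of Gtpbp1, in an exon of the noncoding gene Gm26884. It had 7 CG in 213 bases and 54.5% G and C. The second lay in an intron of the cadherin gene Cdh12, 23589 bp from the nearest protein-coding TSS, and its 300 bases held 2 CG. The third lay in an intron of the noncoding gene Pvt1, 301900 bp from the TSS of Myc, with 1 CG in 300 bases. Fold enrichment over background at the Gtpbp1 site was 4.77 and 5.30 in WT and 6.68 and 5.42 in ATRXΔRBR. At the Cdh12 site it was 5.61 and 6.05 in WT, above both ATRXΔRBR lists at 5.31 and 5.44. At the Pvt1 site it was 4.70 and 4.79 in WT and 5.80 and 4.70 in ATRXΔRBR. Over all 128 intersections the DNA was 48.6% G and C with 20.2 CG per kb, compared with 42.0% and 8.65 per kb for the whole chromosome, and 9.10% of it was repeat-masked compared with 31.5%.

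Promoters are shown from 250 bases before to 50 after the RefSeq start, in the direction of transcription (RefSeq, GRCm38.p6), again with each CG in capitals.
Npr3 promoter, chr15:11907322-11907621, − strand: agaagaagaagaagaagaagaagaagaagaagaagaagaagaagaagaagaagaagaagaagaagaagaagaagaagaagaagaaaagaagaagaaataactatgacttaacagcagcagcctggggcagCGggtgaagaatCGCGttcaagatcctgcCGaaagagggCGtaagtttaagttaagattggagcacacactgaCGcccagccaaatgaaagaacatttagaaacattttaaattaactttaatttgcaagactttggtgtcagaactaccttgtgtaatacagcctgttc
Kcnj4 promoter, chr15:79505192-79505491, − strand: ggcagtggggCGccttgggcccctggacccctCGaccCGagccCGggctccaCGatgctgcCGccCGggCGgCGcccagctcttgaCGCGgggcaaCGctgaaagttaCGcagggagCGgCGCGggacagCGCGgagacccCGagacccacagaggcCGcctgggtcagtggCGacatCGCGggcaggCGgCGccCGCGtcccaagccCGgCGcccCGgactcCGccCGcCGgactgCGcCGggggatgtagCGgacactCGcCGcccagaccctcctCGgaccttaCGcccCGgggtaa
Ranbp3l promoter, chr15:8967699-8967998, + strand: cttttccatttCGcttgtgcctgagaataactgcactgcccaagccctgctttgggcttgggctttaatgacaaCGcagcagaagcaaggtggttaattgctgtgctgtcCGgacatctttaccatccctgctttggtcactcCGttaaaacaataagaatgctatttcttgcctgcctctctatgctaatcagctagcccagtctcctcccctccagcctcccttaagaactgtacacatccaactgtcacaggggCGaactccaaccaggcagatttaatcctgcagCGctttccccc

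They were picked from the 13 of 30 named genes that had an entry. Npr3 had 6 CG, Kcnj4 had 41 and Ranbp3l had 6. Of all 32851 RefSeq promoters of that length, 94.6% held at least 1 CG and 43.5% held 10 or more, with 43.2% of the 936 on chromosome 15. The TSS of Npr3 was within 2 kb of EZH2 and H3K27me3 peaks in both WT lists and in both ATRXΔRBR lists and of neither in ATRX KD. The TSS of Kcnj4 was within 2 kb of both in every list of the 3 genotypes, and that of Ranbp3l in none.

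Chromosome 15 held 5.49% and 6.66% of ATRX peaks in WT and 7.51% and 6.22% in ATRXΔRBR. The lists of the genotypes overlapped, and the log2 ratio of the mean shares was 0.18. For EZH2 the share was 4.90% and 4.91% in WT, 6.15% and 5.24% in ATRXΔRBR, while ATRX KD had 4.04% and 4.06%, with log2 ratios of 0.22 and -0.27. H3K27me3 stood at 4.44% and 4.38% in WT and 5.93% and 6.29% in ATRXΔRBR, a log2 ratio of 0.47, and 3.62% and 3.93% in ATRX KD, a log2 ratio of -0.22. For both PRC2 readouts the ATRXΔRBR lists lay above WT and the ATRX KD lists below it. Among 20 chromosomes the H3K27me3 ratio ranked 4 from the top in ATRXΔRBR and 6 from the bottom in ATRX KD, and the EZH2 ratio ranked 2 from the top and 2 from the bottom. The ATRX KD lists were much shorter, with 5376 and 7093 EZH2 peaks and 7241 and 6336 H3K27me3 peaks in all compared with 22316, 18351, 36011 and 38832 in WT, and the part of list length in the shares was not tested. With peaks within 2 kb of a TSS only, the ATRX ratio was -0.01, and with EZH2 peaks found in both replicates over 50% of their width, the ATRXΔRBR ratio was 0.01. The share of RNA-Seq counts from chromosome 15 followed the same order, at 5.91% and 5.65% in WT, 6.94% and 7.19% in ATRXΔRBR, while ATRX KD had 4.44% and 4.49%.

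**Figure D1:**
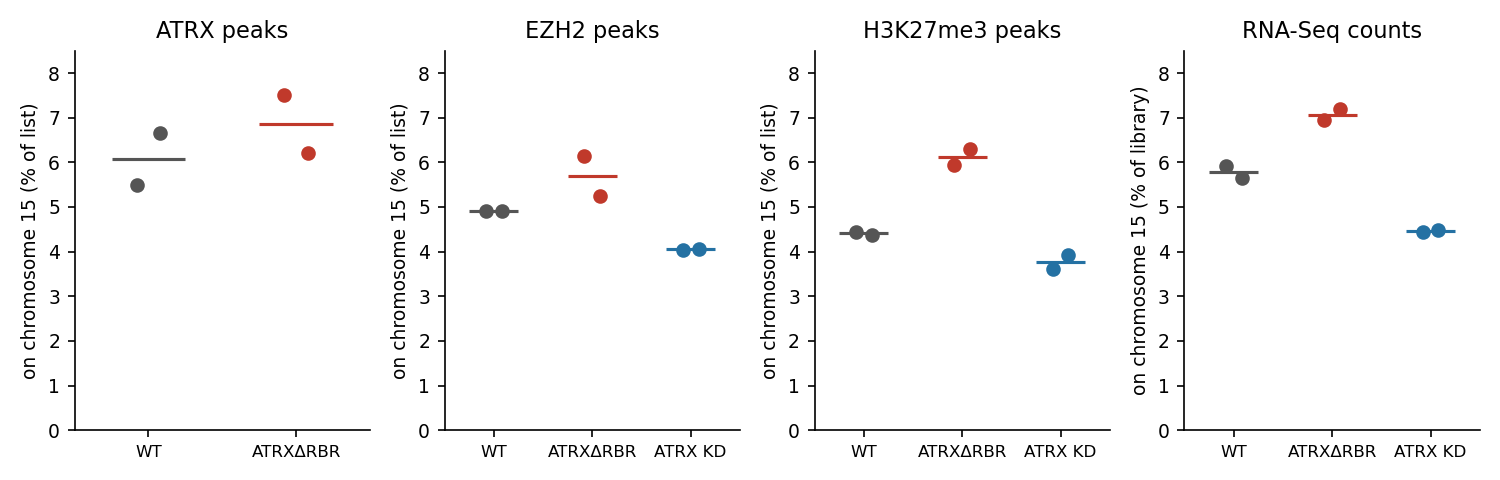
Share of each peak list (% of peaks) and of each RNA-Seq library (% of estimated counts) on chromosome 15, with 1 point per list or library and a bar at the mean of 2. H3K27me3 lists sat at 5.93% and 6.29% in ATRXΔRBR, above WT at 4.44% and 4.38%, and ATRX KD lists at 3.62% and 3.93% below it, while the ATRX lists of WT and ATRXΔRBR overlapped.

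ATRX peaks on chromosome 15 numbered 499 and 316 in WT and 469 and 297 in ATRXΔRBR. They were short, with median widths of 335 and 358 bp in WT and 406 and 354 bp in ATRXΔRBR. Between 21.2% and 39.9% of them lay within 2 kb of the TSS of an annotated gene of any type, with both extremes in ATRXΔRBR. At the level of genes, 126 and 69 of the 785 protein-coding TSS were within 2 kb of an ATRX peak in WT and 172 and 48 in ATRXΔRBR, so the WT counts fell between the 2 ATRXΔRBR counts. In 5 Mb bins, both ATRXΔRBR lists were above both WT lists in 3 of 19 bins (11.9% of bins genome-wide) and below in 1 (15.1%). The bins that were higher, at a share near the 11.9% of the genome, were 8, 12 and 18. They run from 35 to 40, 55 to 60 and 85 to 90 Mb. Their most abundant genes in WT were Pabpc1, which encodes the cytoplasmic poly(A)-binding protein, Sqle, an enzyme of cholesterol synthesis, and Atxn10.

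ATRX and EZH2 peaks met often. On chromosome 15, 67.1% and 64.6% of WT ATRX peaks overlapped an EZH2 peak of the same replicate number by at least 1 bp, compared with 65.5% and 62.8% on the other chromosomes. In ATRXΔRBR the values were 76.3% and 38.0% (74.7% and 39.8% on the other chromosomes), so its replicates lay on either side of WT. ATRX and H3K27me3 peaks hardly met, at 1.00% and 0.633% of ATRX peaks in WT and 2.13% and 1.35% in ATRXΔRBR. On the other chromosomes these values were 0.791% and 0.429% in WT and 0.796% and 0.670% in ATRXΔRBR.

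EZH2 peaks numbered 1092 and 900 in WT, 1377 and 597 in ATRXΔRBR, while ATRX KD had 215 and 286. They covered 0.951% and 0.777% of the chromosome in WT and 1.33% and 0.545% in ATRXΔRBR, and in ATRX KD 0.118% and 0.157%. Within 2 kb of the 785 protein-coding TSS, EZH2 was found at 472 and 443 in WT, 469 and 362 in ATRXΔRBR, while ATRX KD had 168 and 211. As a share of each list, EZH2 was higher in both ATRXΔRBR lists in 8 of 20 bins (14.0% genome-wide) and lower in 1 (25.0%). The higher bins were 8, 14 to 19 and 21, so 7 of them lay in the distal part of the chromosome. In ATRX KD, 11 of 19 bins were lower in both lists (30.4% genome-wide) and 2 were higher (35.4%), and bin 15, from 70 to 75 Mb, fell furthest, by 1.26 on the log2 scale. EZH2 peaks of all genotypes were rich in CG, with 46.0 and 47.6 CG per kb in WT, 36.5 and 48.8 in ATRXΔRBR, while the fewer peaks of ATRX KD had 68.2 and 67.3.

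In ATRXΔRBR, H3K27me3 peaks filled 5 bins that were nearly empty in WT. Both WT lists had few peaks in bins 8, 9, 11, 12 and 13, which span 35 to 45 and 50 to 65 Mb, and both ATRXΔRBR lists had many. Bin 13 went from 1 and 1 peaks in WT to 157 and 149 in ATRXΔRBR. Bin 12 went from 4 and 5 to 142 and 127, and bin 11 from 4 and 12 to 113 and 93. Bin 9 went from 20 and 18 to 198 and 171, and bin 8 from 13 and 16 to 102 and 96. Since these bins were picked for few peaks in WT and many in ATRXΔRBR, the gap between genotypes is a description. In kilobases, the 5 bins together held 133 and 141 kb of H3K27me3 in WT and 2614 and 2409 kb in ATRXΔRBR. Bin 10, between them and gene-poor with 2 protein-coding genes, was the opposite, with 19 and 20 peaks in WT and 1 and 1 in ATRXΔRBR.

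Outside the 5 bins, chromosome 15 held 4.33% and 4.26% of the remaining H3K27me3 peaks in WT and 4.16% and 4.45% in ATRXΔRBR. The lists then overlapped, and the log2 ratio went from 0.47 to 0.00. Since the 5 bins were picked for their gain, leaving them out lowers the ratio by construction, and other bins gained and lost peaks as well. Bin 2 went from 123 and 124 peaks to 204 and 169 and bin 7 from 39 and 54 to 103 and 98, while bin 17 went from 204 and 198 to 150 and 142. Bins with at most 20 peaks in each WT list and at least 90 in each ATRXΔRBR list numbered 7 of 545 over the genome (1.28%), of which 5 were these, and no bin met the reverse condition. These cut-offs were set after the counts had been seen. In ATRX KD the same 5 bins held 51 and 42 peaks, which was 0.707% and 0.666% of its short lists compared with 0.117% and 0.134% in WT, so as a share they were also above WT. Without them the ATRX KD log2 ratio went from -0.22 to -0.46, with 2.93% and 3.29% of the remaining peaks on chromosome 15.

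The H3K27me3 peaks that filled these bins in ATRXΔRBR lay mostly away from promoters. Of these peaks, 4.35% and 5.03% lay within 2 kb of a protein-coding TSS, compared with 10.9% and 10.6% in the other bins of the chromosome, and 6.04% and 1.42% overlapped an EZH2 peak, compared with 15.4% and 5.89%. Their DNA had 6.14 and 6.08 CG per kb, compared with 8.90 and 9.05. The bins themselves differ in these traits. Bins 8, 9, 11, 12 and 13 held 32, 15, 15, 33 and 12 of the 785 protein-coding genes of the chromosome. All their DNA had 9.25, 5.99, 6.88, 9.06 and 6.63 CG per kb, and the whole chromosome 8.65. The part of gene density and base composition of the bins in these shares was not tested. Median fold enrichment was 3.45 and 3.46, close to the 3.48 and 3.54 of the other bins, and median width was 2000 and 2058 bp. EZH2 peaks in the 5 bins did not separate the genotypes, with 169 and 142 in WT and 222 and 74 in ATRXΔRBR. The part of copy number or of read depth in these counts was not tested, since the lists hold peaks and not reads.

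Genome-wide, H3K27me3 lists differed in most places, so bin counts need that background. Both ATRXΔRBR lists were above both WT lists in 9 of 20 bins of chromosome 15 (41.0% genome-wide) and below in 7 (42.4%). The other higher bins were 2, 3, 7 and 19, with log2 ratios of 0.65, 0.51, 1.18 and 0.66. Of the peaks of ATRXΔRBR replicates 1 and 2 on chromosome 15, 58.1% and 57.4% met no WT peak, compared with 51.6% and 48.5% on the other chromosomes and 52.0% and 49.1% over all. In the other direction, 27.6% and 32.7% of WT peaks on chromosome 15 met no ATRXΔRBR peak, compared with 44.0% and 47.5% elsewhere and 43.3% and 46.8% over all.

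**Figure D2:**
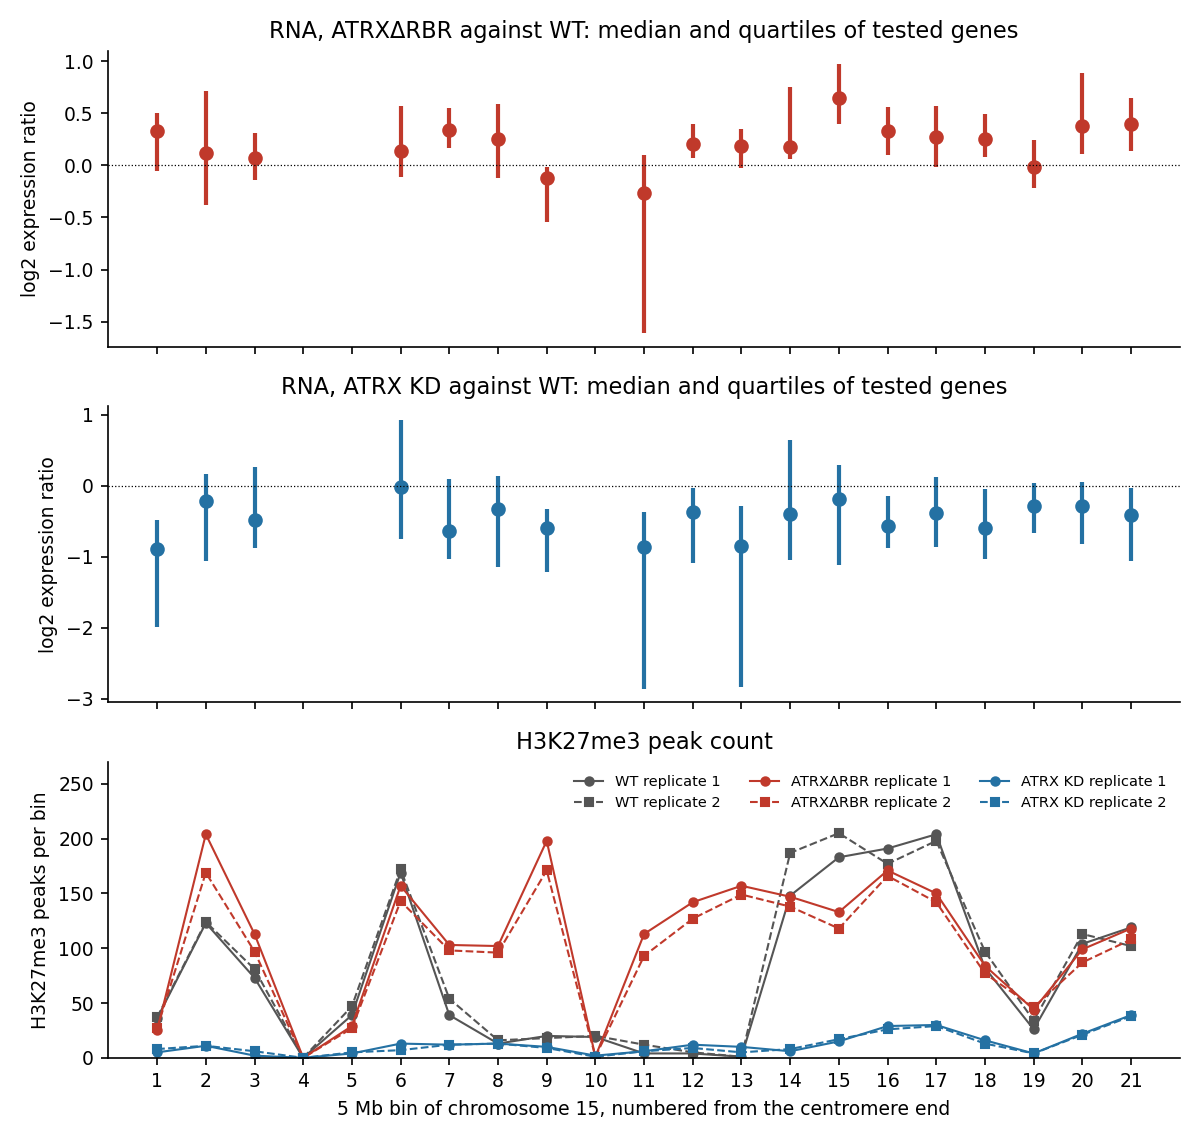
Bins of 5 Mb along chromosome 15: median (point) and quartiles (line) of the log2 expression ratio to WT over the tested genes of bins with at least 10, for ATRXΔRBR (top) and ATRX KD (middle), and number of H3K27me3 peaks in each of the 6 lists (bottom). H3K27me3 counts of WT and ATRXΔRBR part in bins 8, 9 and 11 to 13, where expression medians of ATRXΔRBR lie between -0.27 and 0.25.

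The 3 widest H3K27me3 peaks of WT were almost wholly covered in ATRXΔRBR and little covered in ATRX KD, where H3K27me3 over the whole chromosome came to 239 and 208 kb compared with 5526 and 6413 kb in WT. The widest, chr15:102891527-103142078, spanned 250552 bp and the Hoxc genes from Hoxc13 to Hoxc4, which encode homeodomain factors that pattern the body axis. It was covered by H3K27me3 to 99.8% or more in both ATRXΔRBR lists and to 3.96% and 2.72% in ATRX KD. EZH2 peaks covered 63.3% and 61.2% of it in WT, 76.6% and 58.5% in ATRXΔRBR, while ATRX KD had 4.96% and 5.75%. In each ATRX KD list, 10 H3K27me3 peaks and 17 EZH2 peaks lay within it. A second peak, chr15:101809438-101892211, covered the keratin genes Krt2, Krt1, Krt77 and Krt76, of which ATRX KD lists covered 2.81% and 1.82%. The third, chr15:102740156-102803312, held no protein-coding gene and was covered to 93.0% and 93.3% in ATRXΔRBR and to 4.80% and 2.97% in ATRX KD. All 10 members of the Hoxc list were within 2 kb of H3K27me3 in both WT lists and both ATRXΔRBR lists, and 4 in each ATRX KD list, yet none had enough RNA-Seq counts to be tested in either comparison.

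Expression of chromosome 15 as a whole lay above WT in ATRXΔRBR. Of 670 genes tested, 74.3% had a log2 ratio above 0, compared with 48.5% of all 16334 genes, and the median was 0.28, compared with -0.02 over all genes. Only chromosome 1, at 0.32, had a higher median among 20 chromosomes, and chromosome 19 was next at 0.10. Relative to the mean of the 6 libraries, the median chromosome 15 gene stood at 0.05 and 0.03 in WT, 0.27 and 0.30 in ATRXΔRBR on the log2 scale, while ATRX KD stood at -0.33 and -0.31. Genes elsewhere stood between -0.02 and 0.02 in all 6. The 3 genotypes thus did not overlap, and replicates lay within 0.03 of each other. edgeR called 58 chromosome 15 genes at an adjusted p under 0.05 (8.66% of those tested, against 6.85% of all genes), of which 42 were higher (2.79% of all genes were) and 16 lower (4.07%). The count was 109 without a filter on low counts, 36 with at least 10 counts in every library and 106 with all 6 libraries in 1 fit. It was 296 in a fit that crossed the replicate numbers of the genotypes, a pairing chosen after seeing the data.

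The same chromosome lay below WT in ATRX KD. Of 664 genes tested, 26.2% had a log2 ratio above 0, compared with 49.0% of 16785 genes, and the median was -0.45, compared with -0.02. This was the lowest of 20 chromosomes, with chromosome 19 next at -0.39. edgeR called 276 genes (41.6%, against 33.0% of all genes), 39 of them higher (15.2% of all genes were) and 237 lower (17.8%). With only 1 ATRX KD library in the fit, the count was 172 without replicate 1 and 154 without replicate 2, and without WT replicate 2 the higher genes numbered 88. On mean TPM with a pseudocount of 1 the median was -0.20, where all genes stood at 0.20.

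**Figure D3:**
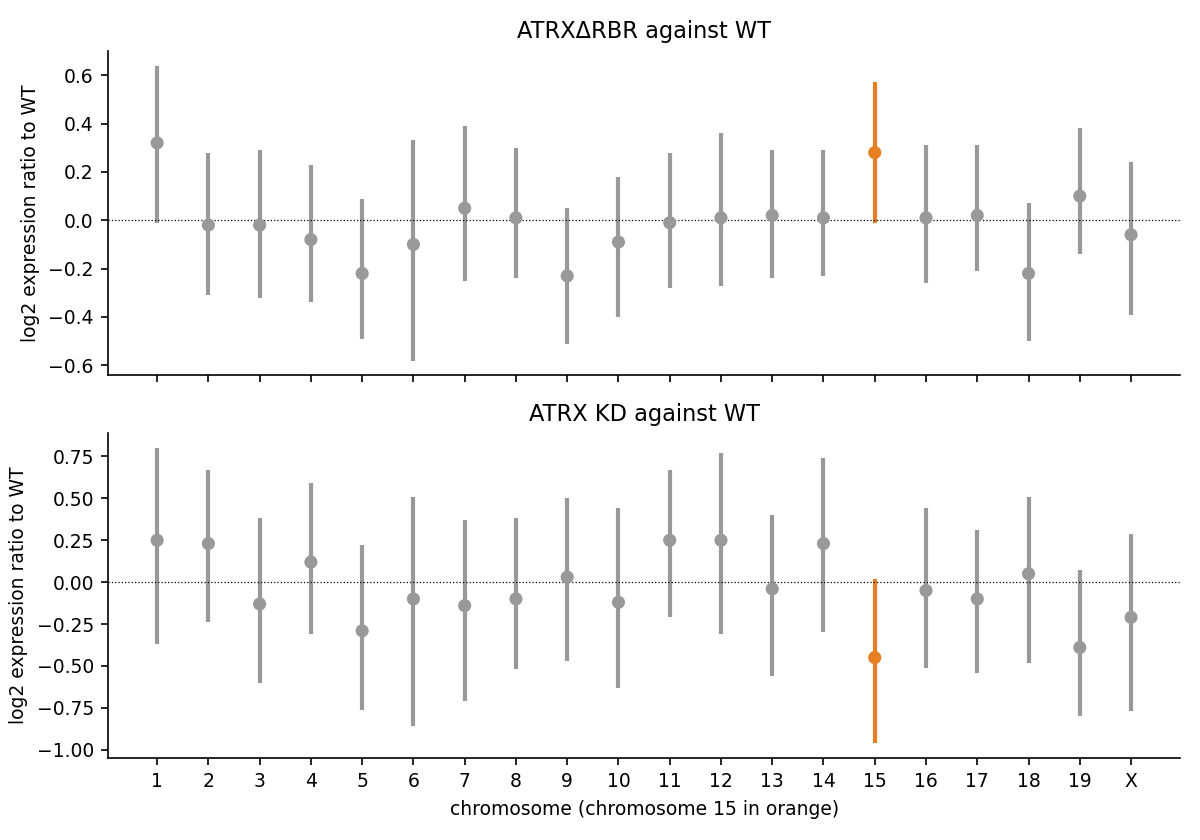
Median (point) and quartiles (line) of the log2 expression ratio to WT over the tested genes of each chromosome, for ATRXΔRBR (top) and ATRX KD (bottom). Chromosome 15, in orange, had a median of 0.28 in ATRXΔRBR, below chromosome 1 alone, and of -0.45 in ATRX KD, the lowest.

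The displacement was shared by genes of every level. In ATRXΔRBR, chromosome 15 genes under 1 TPM in WT had a median log2 ratio of 0.31, those from 1 to 10 TPM 0.26, those from 10 to 100 TPM 0.31 and those of 100 TPM or more 0.20. The same classes on other chromosomes had medians of 0.13, -0.03, 0.00 and -0.16. In ATRX KD the chromosome 15 medians were -0.15, -0.75, -0.35 and -0.66, and those elsewhere 0.48, -0.06, 0.04 and -0.32. Protein-coding genes had medians of 0.30 in ATRXΔRBR and -0.44 in ATRX KD, and other genes 0.15 and -0.56.

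The displacement was present in each of the 3 commonest chromatin classes of WT TSS, set by peaks within 2 kb. The 350 tested genes with EZH2 and without H3K27me3 at their TSS had a median of 0.27 in ATRXΔRBR, compared with -0.02 for such genes elsewhere. The 204 genes with neither had 0.32, compared with -0.01. The 42 genes with both marks had 0.20, compared with -0.39, and 4 of them were higher and 4 lower (6.14% and 23.3% of the class elsewhere). In ATRX KD the medians of these classes were -0.43, -0.54 and -0.60, compared with 0.00, 0.02 and -0.11 elsewhere.

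**Figure D4:**
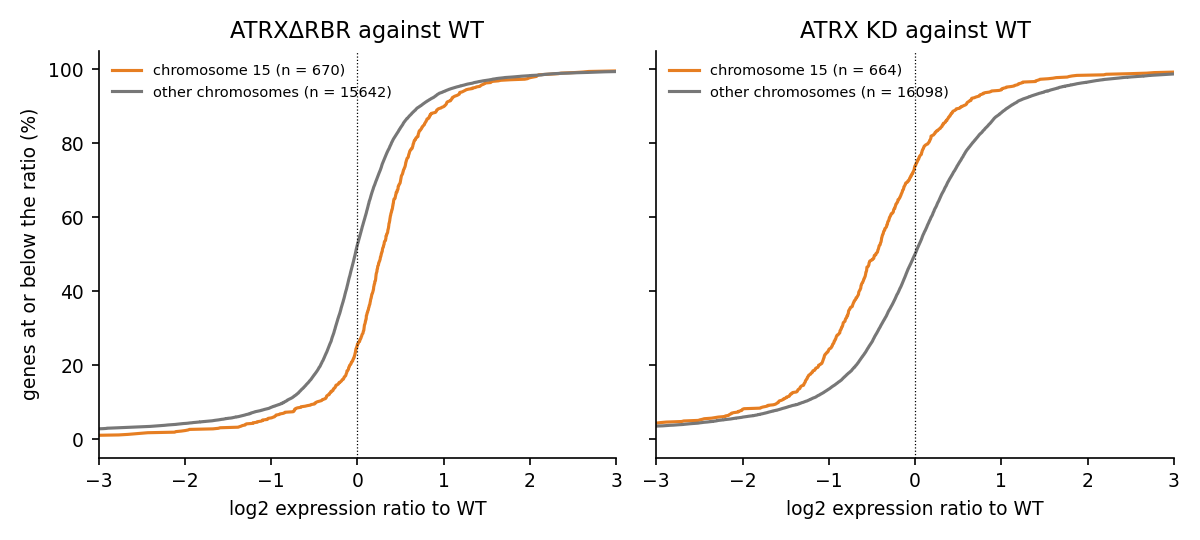
Cumulative share of genes (%) by log2 expression ratio to WT for tested genes on chromosome 15 (orange) and on the other chromosomes (grey). The whole chromosome 15 curve is displaced, to the right in ATRXΔRBR (median 0.28) and to the left in ATRX KD (median -0.45), and not just its tails.

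Along the chromosome, 15 of the 18 bins with at least 10 tested genes had a median above 0 in ATRXΔRBR (41.1% of 426 such bins elsewhere). The highest was bin 15, at 0.65, in which all 23 tested genes were above 0. Its most abundant gene, Ly6e, encodes a small GPI-anchored surface protein. Bins 20 and 21, at the distal end, followed at 0.38 and 0.40, and bin 20, from 95 to 100 Mb, held 11 of the 42 higher genes. Their most abundant genes were Tmbim6, a membrane protein of the endoplasmic reticulum, and Pcbp2, an RNA-binding protein. The 3 bins below 0 were bin 9 (-0.12), bin 11 (-0.27, with 4 of 12 genes called lower) and bin 19 (-0.02), whose most abundant genes were Eny2, Eif3h and Zcrb1. Bins 9 and 11 were among the 5 with few H3K27me3 peaks in WT and many in ATRXΔRBR, but bins 8, 12 and 13 had medians of 0.25, 0.20 and 0.19. Over the 5 bins together 110 tested genes had a median of 0.12, with 4 higher and 7 lower, and the 560 of the other bins had 0.32, with 38 higher and 9 lower (2.79% and 4.07% of all genes).

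All 18 bins were below 0 in ATRX KD (51.5% of 427 bins elsewhere). They ran from -0.89 in bin 1, where Oxct1 of ketone body breakdown was the most abundant gene, to -0.01 in bin 6, where it was Ank. Bins 11 and 13 were at -0.86 and -0.85, and bin 16, with 131 tested genes, at -0.56 with 56 lower and 4 higher. Over the chromosome 35.7% of genes were lower and 5.87% higher, and over all genes 17.8% and 15.2%. The most abundant genes of bins 13 and 16 were Fam49b and Lgals1, the latter encoding galectin-1.

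Single genes were ranked among those called with at least 20 counts in a library and no overlap with WT. In ATRXΔRBR the steepest rise among them was in Col2a1, which encodes the collagen of cartilage. It was at 2.06 and 1.92 CPM in WT and 21.6 and 20.9 in ATRXΔRBR, a log2 ratio of 3.41 ± 0.24 (edgeR adjusted p = 0.00036). Its TSS was within 2 kb of EZH2 and H3K27me3 peaks in every list of all genotypes. Igfbp6, an inhibitor of insulin-like growth factor, was at 2.22 and 1.42 CPM in WT and 7.66 and 13.1 in ATRXΔRBR (log2 ratio 2.52 ± 0.38). Sybu, a linker of cargo to kinesin, was at 6.12 and 6.26 CPM in WT and 29.2 and 32.8 in ATRXΔRBR (2.33 ± 0.20). The TSS of Sybu was nevertheless within 2 kb of an H3K27me3 peak in both ATRXΔRBR lists and in neither WT list. Gpd1, a glycerol-3-phosphate dehydrogenase, was at 3.97 and 4.93 CPM in WT and 20.7 and 20.4 in ATRXΔRBR (2.21 ± 0.23). The other steep rises were in genes near the detection limit in WT, namely Fam135b (3.16), Soat2 (3.02), Ranbp3l (2.68) and Amigo2 (2.08), all at 1.34 CPM or less there. Apol10b, named after its values were seen, was called higher with 20 counts over both ATRXΔRBR libraries and 1 in WT, too few to enter the ranking. The ratio of Soat2 was 2.30 without WT replicate 1 and 4.39 without WT replicate 2, and Amigo2 was not called by DESeq2 or without ATRXΔRBR replicate 1 (1.85).

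Among the falls, Adamts12, a secreted metalloprotease, was at 4.13 and 5.68 CPM in WT and 0.420 and 0.291 in ATRXΔRBR, a log2 ratio of -3.78 ± 0.46 (edgeR adjusted p = 0.0028). Tnfrsf11b, which encodes the decoy receptor osteoprotegerin, was at 13.4 and 16.5 CPM in WT and 1.15 and 2.11 in ATRXΔRBR (-3.14 ± 0.33). Npr3, the clearance receptor for natriuretic peptides, was at 38.6 and 42.2 CPM in WT and 10.3 and 9.88 in ATRXΔRBR (-1.99 ± 0.19). These genes were well above the detection limit in WT. Shank3, a scaffold of the synapse, had 26 counts over both WT libraries and 0 in ATRXΔRBR, at least 8.05-fold lower when set against 3 counts over the group. Samd12 had 65 counts in WT and 1 in ATRXΔRBR, 60.4-fold lower (95% exact counting interval 10.5 to 2422), with fitted log2 ratios of -4.99 and -7.91 without ATRXΔRBR replicate 1 and without replicate 2. The remaining falls were Kcnj4 (-3.65), a potassium channel, Sept3 (-2.58), a septin, and Tmem74 (-2.43). Without ATRXΔRBR replicate 2 the calls of Sept3 (-2.16) and Tmem74 (-1.81) were lost, and DESeq2 did not call Sept3. The ratio of Kcnj4 was -4.27 without that library, and the ratio of Tmem74 was -3.23 without ATRXΔRBR replicate 1.

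**Figure D5:**
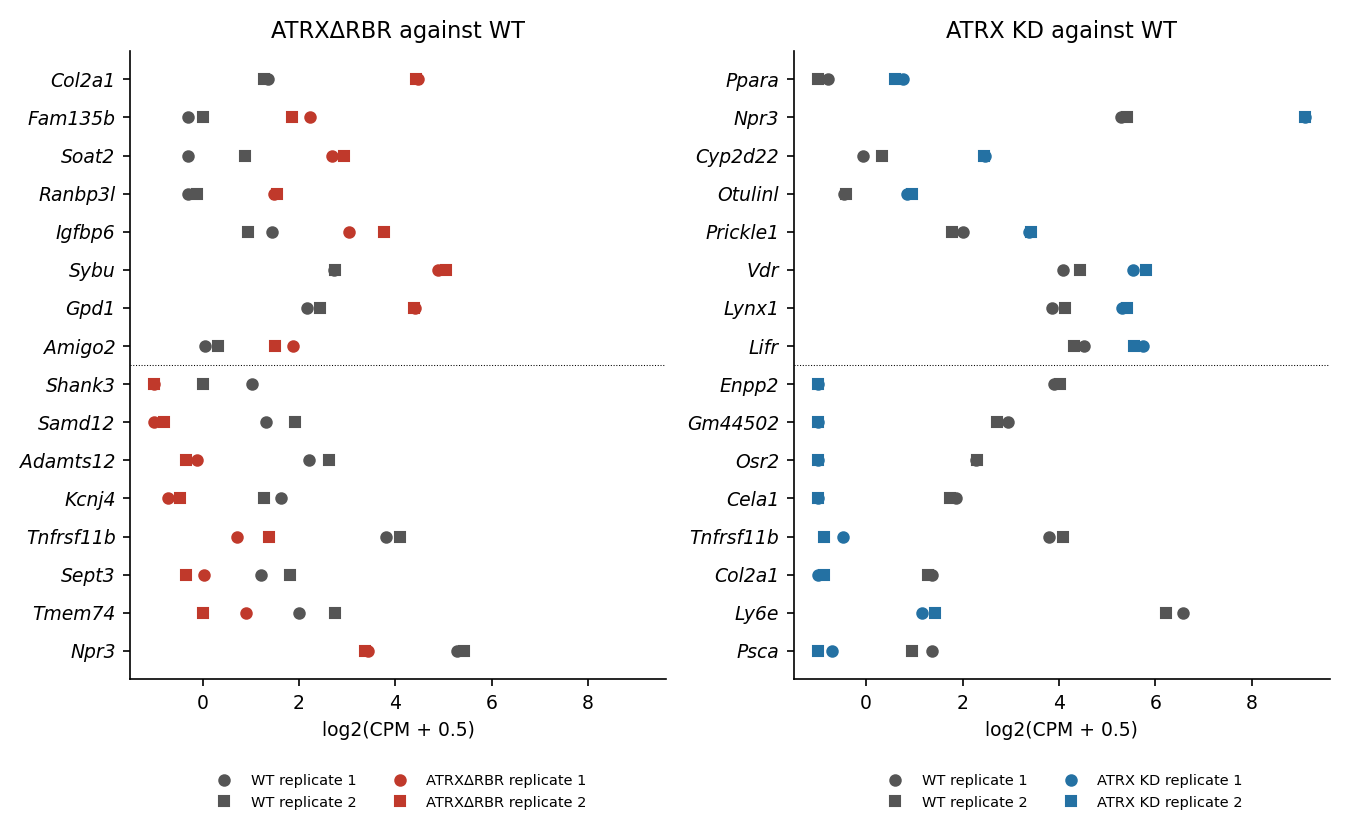
Expression as log2(CPM + 0.5) in each of 2 libraries per genotype for the protein-coding genes of chromosome 15 with the 8 steepest rises (above the dotted line) and 8 steepest falls among called genes with at least 20 counts in a library. Libraries of the compared genotypes do not overlap because that was part of the rule, and Npr3 lies left of WT in ATRXΔRBR and right of it in ATRX KD.

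Npr3 rose in ATRX KD, to 555 and 549 CPM (log2 ratio 3.77 ± 0.12, edgeR adjusted p = 2.4e-05). Vdr, the vitamin D receptor, went from 16.5 and 21.1 CPM in WT to 46.3 and 55.6 (1.44 ± 0.18). Lifr, the receptor for leukaemia inhibitory factor, went from 22.5 and 19.3 to 53.0 and 47.0 (1.25 ± 0.15). Lynx1 of the Ly6 family (1.40), Prickle1 of planar cell polarity (1.64), Cyp2d22 (3.02) and Otulinl (2.48) also rose, and Ppara, a nuclear receptor of fatty acid breakdown, had 33 counts in ATRX KD and 1 in WT, 26.9-fold higher (95% exact counting interval 4.50 to 1093). Its fitted log2 ratio was 6.97 without WT replicate 1 and 3.69 without WT replicate 2. Otulinl was not called by DESeq2 or without ATRX KD replicate 2.

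Falls in ATRX KD went to zero for several genes. Enpp2, which encodes the secreted enzyme autotaxin, had 378 counts in WT and 0 in ATRX KD, at least 155-fold lower. Osr2, a zinc finger regulator of limb and palate, had 110 and 0 (at least 45.0-fold), and Cela1 had 75 and 0 (at least 30.7-fold), each set against 3 counts over the group. Tnfrsf11b had 373 and 3, 153-fold lower (95% exact counting interval 51.9 to 744). Col2a1 had 50 and 1, 61.4-fold lower (10.5 to 2474), and Psca of the Ly6 family 44 and 1, 54.0-fold lower (9.21 to 2183). The fitted log2 ratios without ATRX KD replicate 1 and without replicate 2 were -8.11 and -6.01 for Tnfrsf11b and -7.77 and -3.86 for Psca, and that of Col2a1 was -7.51 without replicate 2. Ly6e, the most abundant gene of bin 15, fell from 94.6 and 73.8 CPM to 1.74 and 2.18, a log2 ratio of -5.38 ± 0.22 (edgeR adjusted p = 4e-05). Gm44502 had 167 and 0 counts, but it overlaps Cpt1b and Chkb on the same strand, so how its reads were assigned is uncertain.

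By function, 8 of the 16 Ly6 family genes on the chromosome were tested in ATRXΔRBR. All 8 had a ratio above 0 (74.3% over the chromosome), with a median log2 ratio of 1.74 compared with 0.28. The 4 called higher, compared with 2.79% of all genes, were Ly6c1 (1.94), Ly6a (1.55), Ly6e (0.93) and Lynx1 (0.83). In ATRX KD 6 were tested, with a median of -1.53. Ly6a (-1.49), Ly6e and Psca were lower there, and Lynx1 was higher (17.8% and 15.2% of all genes). Several Ly6 genes are near-identical copies, so reads may have been divided among them.

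Of 9 extracellular matrix genes tested in ATRXΔRBR, 4 fell (4.07% of all genes did) and 2 rose (2.79%). Their median was -0.35, compared with 0.28 for the chromosome. The falls were Adamts12, the lysophospholipase Enpp2 (-1.67), the matricellular protein gene Ccn3 (-1.59) and the hyaluronan synthase Has2 (-1.37), and Col2a1 and Matn2 (0.78) rose. In ATRX KD their median was -1.05, compared with -0.45 for the chromosome, and 6 of 9 fell (17.8% of all genes and 35.7% of chromosome 15 genes did), among them Ccn3 (-3.91), Fbln1 (-2.89) and the heparan sulphate polymerase Ext1 (-0.76), and Has2 alone rose (1.20). Receptors and ligands of cytokines and growth factors had a median of -0.41 in ATRXΔRBR, where 2 of 11 rose and 2 fell (2.79% and 4.07% of all genes). Tnfrsf11b and Lifr fell, the latter to 7.45 and 6.18 CPM (-1.61) and Igfbp6 and the growth hormone receptor Ghr (1.00) rose. Their median was -1.22 in ATRX KD, where 6 of 10 fell and 1 rose (17.8% and 15.2% of all genes), including the ligand Angpt1 of the Tie2 receptor (-2.01), the neurotrophic factor Gdnf (-1.29) and the prostaglandin receptor Ptger4 (-1.16).

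Of 8 tested genes around Myc, 1 was called lower in ATRXΔRBR and 5 in ATRX KD (4.07% and 17.8% of all genes were). Myc was at 176 and 132 CPM in WT and 131 and 159 in ATRXΔRBR, which overlapped (log2 ratio -0.08 ± 0.20, edgeR adjusted p = 0.87), and at 80.4 and 82.9 in ATRX KD (-0.92 ± 0.16, 0.0055). Its noncoding neighbour Pvt1 was at 30.7 and 34.4 CPM in WT, 43.3 and 41.7 in ATRXΔRBR, while ATRX KD had 14.7 and 11.6, with log2 ratios of 0.39 ± 0.18 (not called) and -1.33 ± 0.18. Fam84b fell in both, by 0.96 and by 4.34 on the log2 scale. Sqle was at 1095 and 1106 CPM in WT, 1207 and 1222 in ATRXΔRBR, while ATRX KD had 354 and 371. It was called lower there (-1.61), as was Nsmce2 (-0.73). Both Myc and Pvt1 lie in bin 13, where ATRXΔRBR had 157 and 149 H3K27me3 peaks.

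Genes of general cell functions gave no calls in ATRXΔRBR and many in ATRX KD. The ribosomal list held Rpl3, Rpl8, Rpl30 and Rpl37 and also Rps19bp1, which encodes a protein that binds RPS19 and is not itself a ribosomal protein. The list of the respiratory chain and ATP synthase held 7 tested genes, of which Tspo encodes a translocator protein of the outer mitochondrial membrane and belongs to neither. None of the 5 and 7 genes of these lists, or of 4 in the list of alpha tubulins and a neuronal filament, was called in ATRXΔRBR, where their medians were -0.01, 0.21 and 0.00 and 2, 6 and 2 genes had a ratio above 0. Over the chromosome 8.66% of genes were called, a rate at which lists this short hold few calls or none. In ATRX KD all 5, all 7 and 3 of 4 were lower, with medians of -1.29, -0.91 and -1.15. Of all genes 17.8% were lower there, and of genes of 100 TPM or more in WT 39.9% on other chromosomes were and 94 of 131 on chromosome 15. Cox6c, a subunit of cytochrome oxidase, was at 252 and 223 CPM in WT and 55.7 and 62.9 in ATRX KD, and Tuba1a at 389 and 400 and at 135 and 141. Ribosomal protein and tubulin genes have many near-identical copies, so their counts are less certain.

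Of 6 tested transporters in ATRX KD, 4 were higher and 1 lower (15.2% and 17.8% of all genes), with a median of 0.49. The glutamine and neutral amino acid carriers Slc38a1 (0.60) and Slc38a4 (1.11), the glutamate carrier Slc1a3 (0.63) and the haem carrier Slc48a1 (0.37) rose and Slc38a2 fell (-0.62). Of 11 genes of actomyosin and adhesion, 3 had a ratio above 0 there, with a median of -0.06. The cytolinker Plec (0.89) and the myosin heavy chain Myh9 (0.60) rose and Arc (-1.59) and Cdc42ep1 (-0.53) fell, shares near the 15.2% and 17.8% of all genes. In ATRXΔRBR, Plec (1.10), the integrin Itgb7 (1.26) and the endocytic adaptor Dab2 (0.83) rose (2.79% of all genes), as did Slc48a1 (1.03). All 11 genes of the actomyosin and adhesion list were above 0 there (74.3% over the chromosome), with a median of 0.47 compared with 0.28.

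All 13 tested genes of the Polycomb and chromatin list were above 0 in ATRXΔRBR (74.3% over the chromosome), with a median of 0.41 compared with 0.28. None was called there (6.85% of all genes and 8.66% over the chromosome). In ATRX KD 6 of the 13 were above 0 (26.2% over the chromosome), with a median of -0.21 compared with -0.45. Of the 13, 4 were lower (17.8% of all genes and 35.7% over the chromosome) and 2 higher (15.2% and 5.87%). The cohesin subunit Rad21 (-0.37), the PRC1 subunit Cbx7 (-0.56), Hdac10 (-0.53) and Kansl2 (-0.63) were lower, and the acetyltransferase Ep300 (0.46) and the methyltransferase Kmt2d (0.44) higher. The developmental regulators had medians of 0.28 and -0.48. Of 11 tested in ATRXΔRBR, Vdr was called higher (1.04), where 2.79% of all genes and 6.27% over the chromosome were. Of 10 tested in ATRX KD, 4 were lower (17.8% of all genes and 35.7% over the chromosome) and 2 higher (15.2% and 5.87%). Wnt10b (-1.24), Osr2, Zfpm2 (-0.58) and Klf10 (-0.62) were lower and Vdr and Sp1 (0.41) higher. Of the 26 keratins 2 were tested, with Krt7 called lower in ATRX KD from 13 counts to 1, and the terminal complement genes had no tested member. Of 5 type II cadherins of the proximal arm only Cdh18 was tested. It had 29 counts in WT and 0 in ATRXΔRBR, at least 8.98-fold lower, and 2 in ATRX KD, 17.8-fold lower (95% exact counting interval 4.51 to 154).

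Of the tested genes, 26 had H3K27me3 within 2 kb of their TSS in both ATRXΔRBR lists and in neither WT list, and they had a median log2 ratio of 0.14, with Sybu higher and Lifr lower, a share of calls near the 8.66% of the chromosome. The other 399 such genes of the genome had a median of -0.29, with 17.5% lower and 1.00% higher. In the reverse case, 4 genes of chromosome 15 had the mark in both WT lists and neither ATRXΔRBR list, with a median of 0.04, compared with 271 genes elsewhere at -0.44. In ATRX KD, 14 tested genes lost both EZH2 and H3K27me3 peaks from within 2 kb of the TSS in both lists. Npr3 and Lynx1 were higher among them, Zfp707 and Adck5, named after their values were seen, were lower (-0.69 and -0.57). The median was -0.10, compared with 0.18 for 166 such genes elsewhere, of which 25.3% were higher and 24.1% lower.

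Some calls among the genes named from the lists were lost when 1 library was left out. Such a fit has 1 library in one arm, which is assumed to vary like those of the other genotype, and is weaker by construction. In ATRXΔRBR, leaving out WT replicate 1 lost Dab2, Matn2, Vdr, Lynx1 and Ghr, and leaving out WT replicate 2 lost Matn2 and Ly6e. Leaving out ATRXΔRBR replicate 1 lost Dab2, Matn2 and Lynx1, and leaving out its replicate 2 lost Matn2, Has2, Ly6e, Lynx1 and Fam84b. With 1 of the ATRX KD libraries, whichever was left out, the calls of Sp1, Slc1a3, Zfpm2, Rad21, Slc38a1, Slc38a2, Cyc1, Kansl2, Krt7, Klf10, Adamts12, Kmt2d, Cdc42ep1, Cbx7, Ep300, Ghr, Nsmce2, Atp5g2, Hdac10 and Slc48a1 were lost. Ndufa6 and Cox14 were lost without its replicate 1 and not without its replicate 2, and the reverse held for Otulinl, Myh9 and Ext1. Adamts12 and Atp5g2 were also lost without WT replicate 2. The direction held in each case.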

How the data were processed

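Per the submitters' processing notes and the methods of the study, CUT&RUN reads were aligned to mm10 with Bowtie2, and MACS2 called broad peaks separately for each sample. The deposited lists give each peak's position, a score, a fold enrichment ratio and −log10 p-value and q-value as the authors' caller wrote them, and the reads behind them are not in the lists, so the depth of each list is unknown (the study gives only an approximate range over its samples). RNA-Seq reads were aligned with STAR, and the deposited RSEM estimated counts and TPM per gene were made by the authors. FPKM values in the same deposited files were not used. The annotation the authors counted on is not given in the sources used here, and genes were placed with GENCODE M21. IgG controls were not analysed here.

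Estimated counts were rounded, genes whose counts over the compared libraries summed to over 10 were kept, and each genotype was compared with WT over all genes by edgeR 4.0.16 (quasi-likelihood test, TMM, Benjamini-Hochberg adjustment over the whole table, threshold 0.05) in R 4.3.3, after a test on simulated data. The standard error of a log2 ratio was taken as its size divided by the square root of the F statistic. CPM used TMM sizes over all 6 libraries. DESeq2 1.42.0 was an alternative. The study states that replicates were biological. Counting intervals and the floor of 3 counts cover counting error only. A peak was placed in a bin by its midpoint, and lists were compared by an overlap of at least 1 bp. Genes named singly were, per comparison, the 8 protein-coding genes with the largest rise and the 8 with the largest fall. They were ranked among called genes with at least 20 counts in a library and no overlap between genotypes. Myc, Pvt1, called members of 15 gene lists and the most abundant genes of the bins could be named as well, and not all of these are printed. The chromosome, bins and lists were chosen with earlier results of these data known. Median ratios, shares and lists carry no test.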

Additional observations from a re-analysis of the deposited data

Results flagged for a closer look

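Chromosome 15 lay on opposite sides of WT in the ATRXΔRBR and ATRX KD samples by 3 measures, and the difference between the genotypes was not tested. The median log2 expression ratio was 0.28 in ATRXΔRBR and -0.45 in ATRX KD. The log2 ratio of the chromosome's share of EZH2 peaks was 0.22 and -0.27. That of H3K27me3 peaks was 0.47 and -0.22. Among the genes named in both comparisons, Col2a1 (3.41 and -5.62, the latter fitted against 1 count), Igfbp6 (2.52 and -3.01), Ly6a (1.55 and -1.49), Ly6e (0.93 and -5.38), Ghr (1.00 and -0.76) and Pvt1 (0.39, not called, and -1.33) lay above WT in ATRXΔRBR and below it in ATRX KD. Npr3 (-1.99 and 3.77), Lifr (-1.61 and 1.25) and Has2 (-1.37 and 1.20) lay the other way. Both libraries or lists of one genotype were above both WT values and both of the other below them in each case. Since the chromosome was chosen for its shares and medians, and both comparisons rest on the same WT samples, these values are a description. No group had the 4 samples that a test for outliers needs.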

How the results depend on the processing

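Of 515 values recomputed under other settings, 468 kept their direction and their size or side of the threshold, 37 moved, 7 were weaker and 3 reversed. The causes were not tested. The median log2 ratio of chromosome 15 genes in ATRXΔRBR was 0.35 on mean TPM with a pseudocount of 0.1, and 0.26 to 0.33 with 1 library left out. In ATRX KD it was -0.40 with at least 10 counts in every library, and -0.20 and -0.24 on mean TPM with pseudocounts of 1 and 0.1, where all genes stood at 0.20 and 0.21, so that the chromosome lay -0.40 and -0.45 from them. One library left out gave -0.47 to -0.44.

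Called genes in ATRXΔRBR numbered 109 (85 higher) without a filter, 36 (7 lower) with at least 10 counts in every library, and 106 (87 higher) with all 6 libraries in 1 fit. With 1 library left out they numbered 51 to 70, with 38 to 49 higher and 13 to 21 lower. In ATRX KD they numbered 154 to 393, with 18 to 88 higher and 136 to 305 lower, and 0 to 1 bins had a median above 0. DESeq2 called 68 and 241. With a replicate block, 45 and 270 genes were called and 1 bin of ATRX KD was above 0. The labels give same-numbered libraries only a shared number. Correlations of their deviations were -0.70 between WT and ATRXΔRBR and -0.10 between WT and ATRX KD. At -0.70, genes higher in WT replicate 1 than in WT replicate 2 tended to be lower in ATRXΔRBR replicate 1 than in its replicate 2. The source of this common variation was not tested. Crossing the numbers, a pairing chosen after seeing the data, gave 296 calls in ATRXΔRBR. Bins of 2.5 Mb put 4.76% of ATRX KD medians above 0. Of the called genes that were ranked singly or belonged to the gene lists, 22 of 33 in ATRXΔRBR and 43 of 68 in ATRX KD were called in every setting that gave a value. The replicate block lost Dab2, Matn2, Has2, Lynx1 and Fam84b in ATRXΔRBR and Sp1, Rad21, Cyc1, Kmt2d and Slc48a1 in ATRX KD. Matn2 and Lynx1 in ATRXΔRBR and Slc48a1 in ATRX KD lost the call in 5 settings each. The ratio of Myc in ATRXΔRBR turned to 0.14 without WT replicate 1 and 0.05 without ATRXΔRBR replicate 1, and ran from -0.27 to 0.14 with 1 library left out.

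For peak shares, the ATRX ratio turned to -0.01 when only peaks within 2 kb of a TSS were used, and 1 list left out gave 0.03 to 0.32. The EZH2 ratio in ATRXΔRBR was 0.01 for peaks found in both replicates over 50% of their width, and 0.09 to 0.33 with 1 list left out. The EZH2 ratio in ATRX KD was -0.40 at a q-value of 0.01 or less, -0.37 by bases, -0.26 on autosomes, -0.14 at TSS, -0.34 away from them and -0.24 for peaks in both replicates. The H3K27me3 ratio in ATRXΔRBR was 0.64 at a q-value of 0.01 or less, 0.31 at TSS and 0.00 without the 5 bins, and 0.43 to 0.51 with 1 list left out. In ATRX KD it was -0.52 by bases, -0.31 at TSS and -0.46 without the 5 bins. Leaving out the 5 bins was chosen after seeing the data and lowers the ATRXΔRBR ratio by construction. The read depth of each list is unknown beyond an approximate range for all samples, which limits every comparison of peak numbers.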

Other observations

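Protein-coding TSS of chromosome 15 lay within 2 kb of an EZH2 peak more often than those of other chromosomes in all 6 lists, at 60.1% and 56.4% compared with 50.2% and 46.4% in WT, 59.7% and 46.1% compared with 48.8% and 34.6% in ATRXΔRBR, and 21.4% and 26.9% compared with 19.3% and 24.7% in ATRX KD. For H3K27me3 the values were 24.2% and 25.2% compared with 15.3% and 16.1% in WT and 27.1% and 26.0% compared with 15.8% and 14.2% in ATRXΔRBR. They were 6.37% and 5.61% compared with 5.99% and 5.55% in ATRX KD. ATRX peaks followed the same direction in its 4 lists, at 16.1% and 8.79% compared with 11.9% and 5.59% in WT and 21.9% and 6.11% compared with 13.3% and 4.86% in ATRXΔRBR. No test was made of these differences.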
